A study of Drosophila melanogaster with 4 samples.

Results

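Eip93F, Hr38, Hr39 and crol, 4 Drosophila melanogaster genes of the ecdysone hierarchy, were examined for binding of the nuclear receptor Eip78C at the white prepupa stage. They are 4 of the 13968 protein-coding genes of the dm6 Ensembl annotation and were chosen by name. Every peak summit inside a gene or within 5 kb of its ends was assigned to that gene. This gave 14 of the 8282 summits of the joint, reproducibility-thresholded peak list, called the optimal list here. Eip93F and Hr38 held 5 summits each, Hr39 held 3 and crol held 1.

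The chromatin came from whole white prepupae of mixed sex, from a transgenic line of the strain Eip78C-GFP in which eGFP is fused to the C-terminus of Eip78C. The fusion was recovered with an antibody against GFP for chromatin immunoprecipitation and sequencing (ChIP-seq). The 4 biological replicates form 1 group, so the design holds no contrast between conditions. The labels do not give the place of the insertion, the driving promoter, or whether untagged Eip78C remains. Whole animals mix all tissues, so a peak present in a few cell types and a weak peak in many cannot be told apart. No untagged or input sample was analysed here, so the background at these genes is unknown. The files list peaks without read counts, so the depth behind each rank is unknown. Each list gives a peak score made by the authors, and a rank here is the place of a peak by that score, rank 1 being the strongest. The replicate lists are relaxed and hold 30000 peaks each. A peak is therefore called strong in a replicate when it is among the 8282 best of that replicate, the size of the optimal list.

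The steroid hormone ecdysone acts through the receptor EcR with its partner Usp and switches on early genes, many of which encode transcription factors. Eip78C is an ecdysone-induced receptor of the Rev-erb type. Receptors of that type bind the sequence AGGTCA, usually with an AT-rich 5′ extension, and repress transcription in mammals. Eip93F, also known as E93, encodes a DNA-binding protein with a Pipsqueak motif that directs cell death of larval tissues and the switch to adult development. Hr38 encodes the fly member of the NR4A orphan receptors and can pair with Usp. Hr39 encodes a relative of the receptor FTZ-F1 and is needed for the glands of the female reproductive tract. The gene crol, or crooked legs, encodes zinc finger proteins and is needed for leg elongation and head eversion in the pupa.

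The DNA under 6 of the 14 summits is shown because these are the sites on which the results below turn. They include the peak at an Eip93F promoter, the strongest peak inside any of the 4 genes, the narrowest peak upstream of Hr38, the strongest peak inside Hr38, the only window with a receptor core site and the only crol peak. Each is the plus strand of dm6, 5′ to 3′, read from the RefSeq genome and centred on the summit. Capitals mark letters that match a searched motif on either strand. The regions in the same order are chr3R:21972198-21972378, chr3R:21993016-21993215, chr2L:20716092-20716291, chr2L:20700662-20700861, chr2L:21244169-21244368 and chr2L:11806837-11807036. The window of Eip93F summit 1 was cut to 181 bases at the transcription start site (TSS), and the others are 200 bases long.
Eip93F summit 1: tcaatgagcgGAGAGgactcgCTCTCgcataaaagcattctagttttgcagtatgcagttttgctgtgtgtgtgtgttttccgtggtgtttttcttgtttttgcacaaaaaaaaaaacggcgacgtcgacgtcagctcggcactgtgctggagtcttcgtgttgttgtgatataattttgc
Eip93F summit 3: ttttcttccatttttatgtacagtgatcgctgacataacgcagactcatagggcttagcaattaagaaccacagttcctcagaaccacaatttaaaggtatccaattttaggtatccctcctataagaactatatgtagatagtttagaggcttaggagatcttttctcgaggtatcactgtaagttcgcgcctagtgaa
Hr38 summit 2: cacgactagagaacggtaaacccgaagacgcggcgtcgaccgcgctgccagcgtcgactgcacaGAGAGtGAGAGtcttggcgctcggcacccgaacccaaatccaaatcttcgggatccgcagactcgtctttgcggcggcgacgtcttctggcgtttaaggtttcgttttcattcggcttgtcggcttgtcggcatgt
Hr38 summit 3: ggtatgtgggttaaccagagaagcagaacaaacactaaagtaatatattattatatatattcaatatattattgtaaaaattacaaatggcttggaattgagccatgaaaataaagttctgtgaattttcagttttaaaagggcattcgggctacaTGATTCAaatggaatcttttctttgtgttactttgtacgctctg
Hr39 summit 1: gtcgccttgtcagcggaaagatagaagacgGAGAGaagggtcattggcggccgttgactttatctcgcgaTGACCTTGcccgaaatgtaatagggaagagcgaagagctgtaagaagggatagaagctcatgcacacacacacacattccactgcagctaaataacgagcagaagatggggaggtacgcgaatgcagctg
crol summit 1: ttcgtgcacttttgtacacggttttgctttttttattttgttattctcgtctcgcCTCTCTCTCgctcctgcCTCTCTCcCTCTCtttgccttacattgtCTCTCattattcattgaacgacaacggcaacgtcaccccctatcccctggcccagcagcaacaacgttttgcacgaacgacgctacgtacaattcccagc

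Most Eip78C peaks at the 4 genes lay in introns, as did most optimal peaks elsewhere. Of the 14 summits 9 lay inside a gene, all 9 of them in introns and 0 in exons. The remaining 5 lay in the flanks, 2 upstream of Hr38 and 3 downstream of Eip93F, Hr38 and Hr39. Placed in the same way, 64.3% of the 14 summits were in an intron of a protein-coding gene and in no exon, against 55.7% of all optimal summits. Only 1 summit lay within 1 kb of a TSS of the 4 genes, and 4 of 14 (28.6%) lay within 1 kb of the TSS of any protein-coding gene, against 37.2% of all optimal summits. With 14 summits these shares are a description. For 9 summits the nearest protein-coding TSS was that of the gene itself, and for 5 it belonged to another gene. All 3 downstream summits stood close before a TSS of a neighbouring gene, at 70, 131 and 147 bp, and the other 11 were inside or upstream of the 4 genes.

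**Figure D1:**
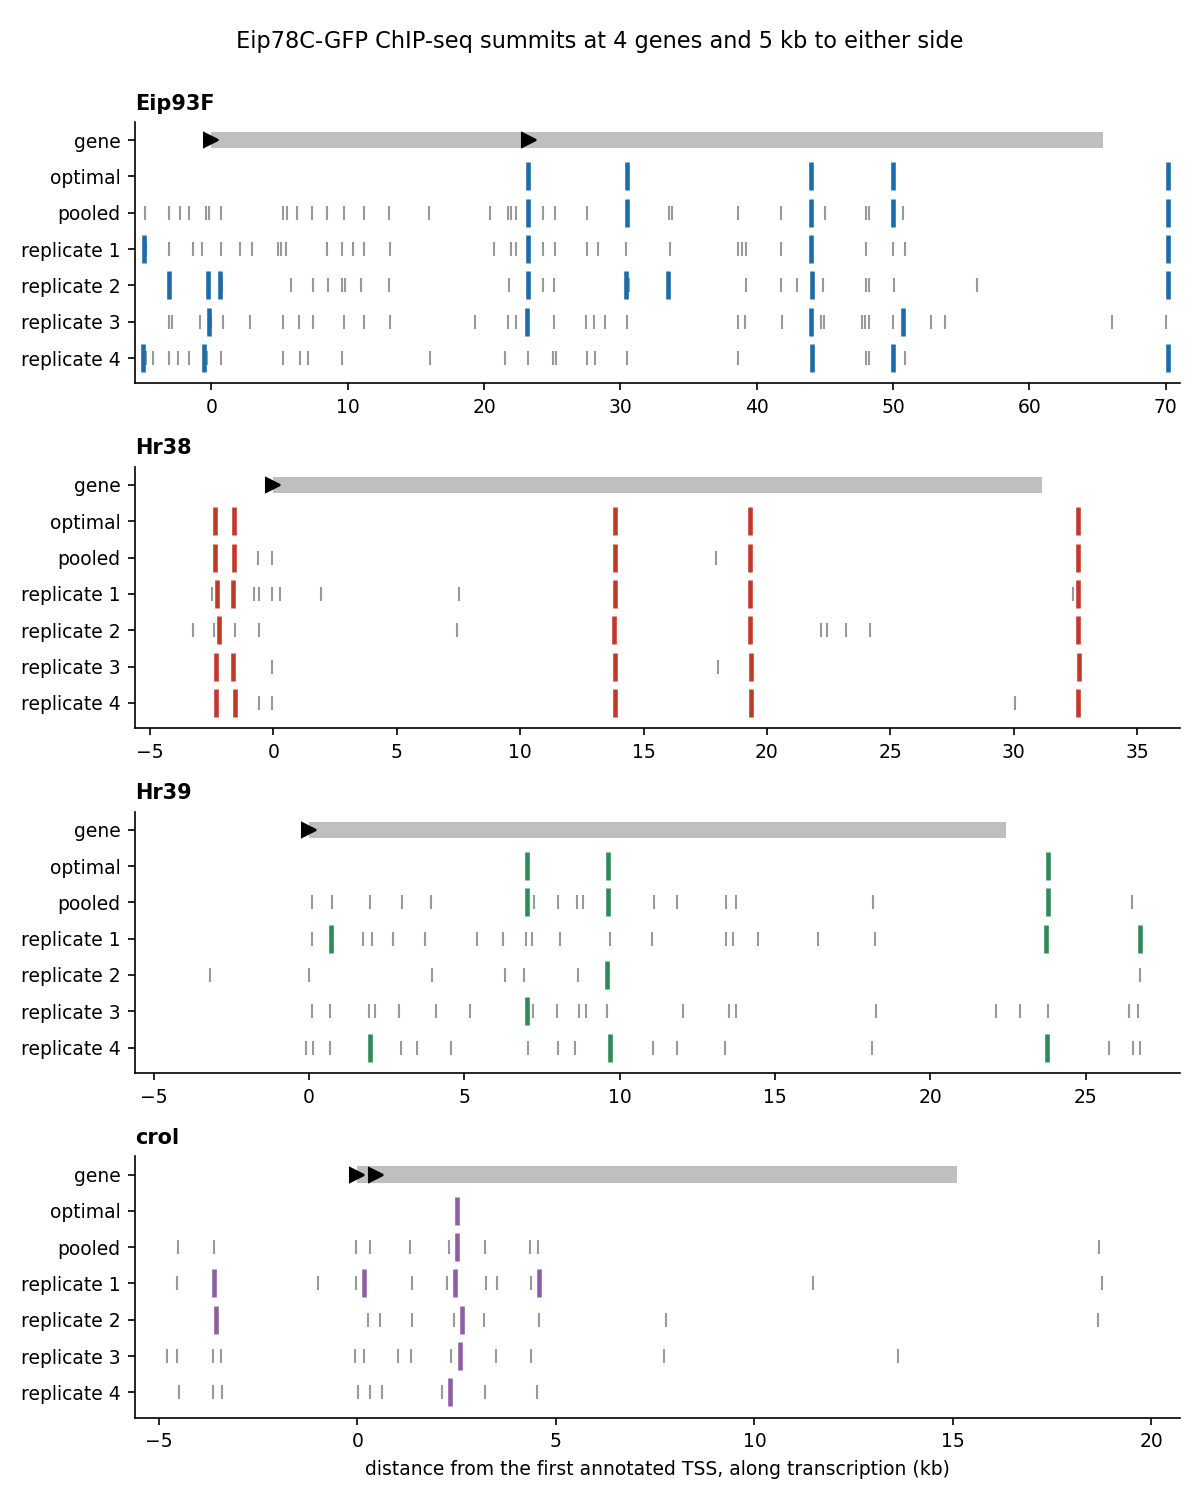
Peak summits at Eip93F, Hr38, Hr39 and crol by distance from the first annotated TSS in kb along transcription. Grey bars are the genes, arrowheads their annotated TSSs, long coloured ticks summits among the 8282 strongest of a list and short grey ticks weaker ones. The summits at Hr38 line up over the lists, while many weaker ones spread over Eip93F and Hr39.

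All 4 genes had an optimal summit in the gene or its flanks, as did 49.2% of all protein-coding genes. Long genes hold summits more often, and the 4 genes are long, from 15112 bp for crol to 65426 bp for Eip93F. Among the 1171 genes in that length range, the 4 included, 76.6% had such a summit. Inside the gene a summit was present in 4 of 4, against 14.9% of all genes and 61.1% of genes in the length range. At least 5 summits were found at 2 of 4, against 4.63% of all genes and 26.4% in the length range. An optimal summit within 1 kb of a TSS was present at 1 of 4, against 22.0% of all genes and 43.5% in the length range. With 4 genes these counts are a description. Apart from the summit near a TSS, the shares at genes of like length stood nearer to them than those over all genes. For a summit within 1 kb of a TSS, the 22.0% of all genes was nearer to 1 of 4 than the 43.5%.

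With the 5 kb flanks counted, Hr38 carried the most optimal summits per length of the 4 genes. It held 12.2 summits per 100 kb of gene and flanks, Hr39 9.25, Eip93F 6.63 and crol 3.98. The whole genome averaged 6.19 per 100 kb, and genes in the length range had a median of 5.73. Of those genes 74.8% had a lower density than Hr38 and 64.6% a lower one than Hr39, against 53.9% for Eip93F and 43.1% for crol. The order depended on the flanks. Within the genes alone the densities were 6.43 per 100 kb at Hr38, 8.92 at Hr39, 6.11 at Eip93F and 6.62 at crol.

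**Figure D2:**
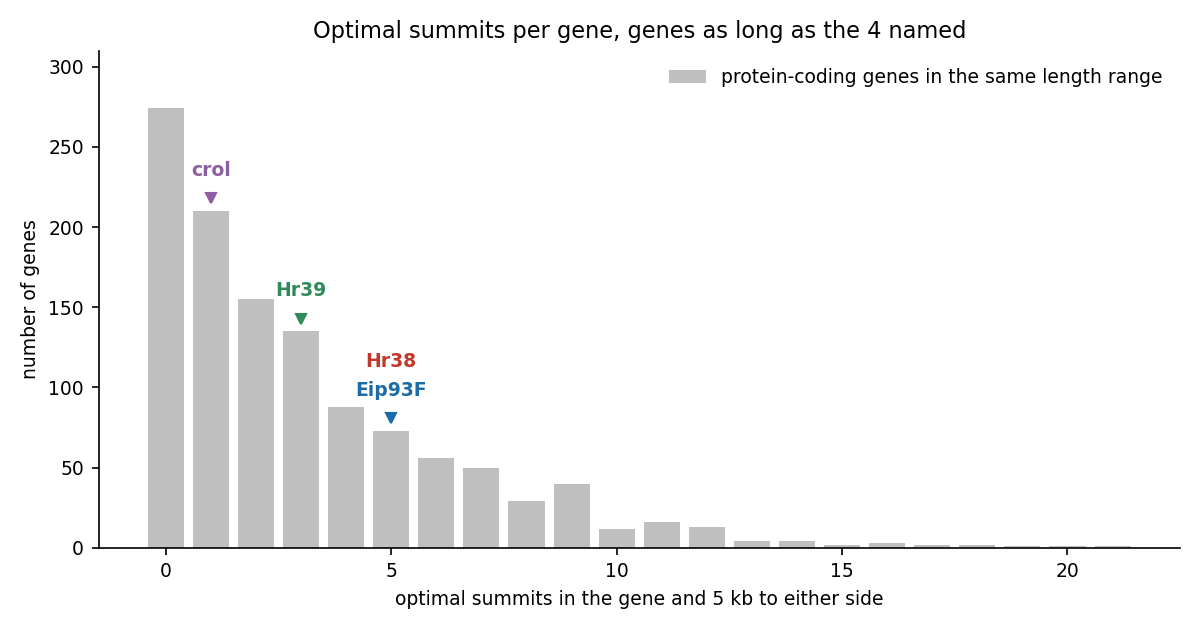
Number of protein-coding genes between 15112 and 65426 bp long (vertical axis) by their count of optimal summits in the gene and 5 kb to either side (horizontal axis). Eip93F and Hr38 with 5, Hr39 with 3 and crol with 1 all fall in the well-filled part of the distribution, where the median is 2.

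The peaks were of middling strength. The 14 summits ranked between 2007 and 7058 of the optimal list, with a median of 4807, against a median of 4141.5 for all optimal peaks. Only 5 of them were among the 4141 strongest. A peak overlapping by at least 1 bp was found in all 4 replicates for 13 of the 14 (92.9%), at any strength, against 94.2% of all optimal peaks. Of the 14, 6 were strong in all 4 replicates, 3 in 3 replicates, 2 in 2 and 3 in 1. These counts rest on overlap. When the replicate summit had to lie within 100 bp, Eip93F summit 5 and crol summit 1 also lacked a partner in 1 replicate. Hr38 summit 1 and crol summit 1 were then no longer strong in all 4. The share that was strong in all 4 was 42.9% at the 4 genes, against 61.1% of all optimal peaks and 59.4% of the 5052 optimal peaks in the same range of ranks. These shares are partly built in, because the optimal list equalled the best 8282 peaks called on the 4 replicates pooled.

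**Figure D3:**
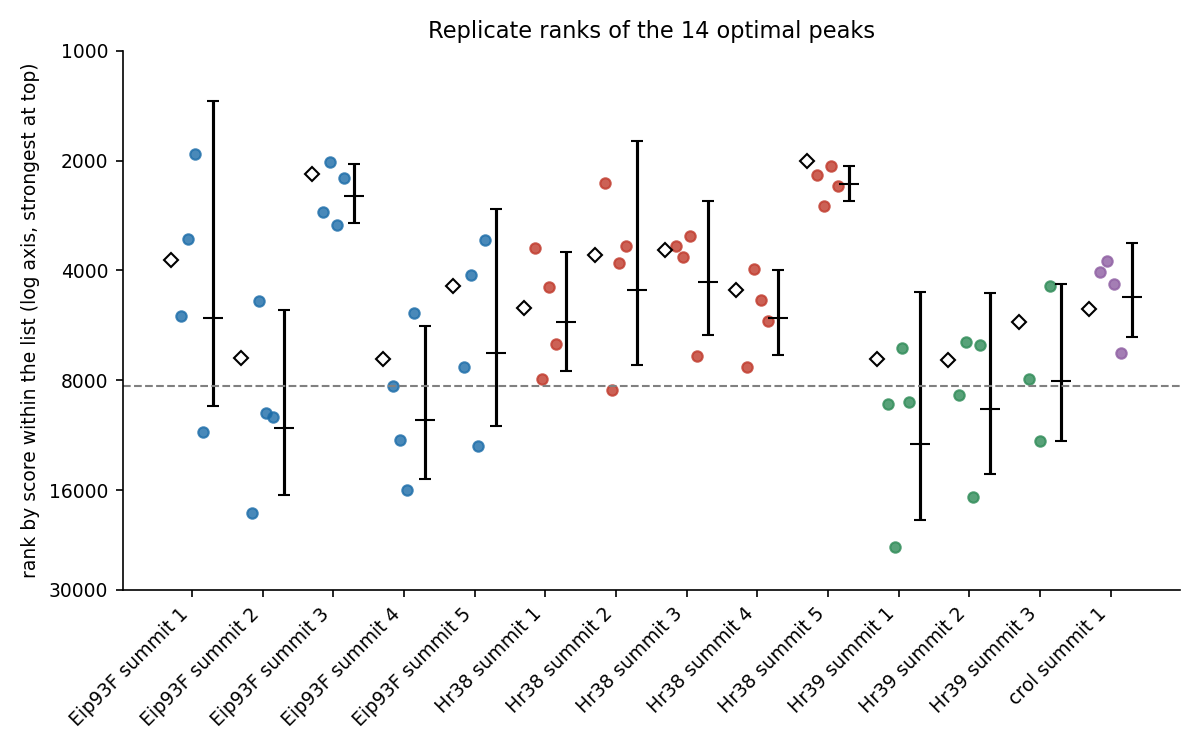
Rank of each of the 14 optimal peaks in the 4 replicates (coloured points, replicates 1 to 4 from left to right), with the optimal rank (open diamonds) and the mean ± SD over replicates (black bars). The vertical axis is logarithmic with the strongest at the top, and the dashed line is rank 8282. Eip93F summit 3 and Hr38 summit 5 are the strongest and the tightest, and the Hr39 peaks scatter across the dashed line.

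Eip93F (FBgn0264490) lies at chr3R:21949114-22014539 on the plus strand. It has 3 annotated transcripts from 2 start sites, that of Eip93F-RB and, further downstream, that of Eip93F-RA and Eip93F-RC. Its strongest peak, summit 3, lay deep in an intron, 20737 bp downstream of the second start site, in intron 2 of Eip93F-RA and Eip93F-RC and intron 3 of Eip93F-RB. It had its summit at 21993116, was 237 bp wide and ranked 2171 with a score of 321. Replicates 1 to 4 placed it at 2769, 2015, 3002 and 2229 (mean 2504 ± 459, SD, n = 4). All 4 values were far inside the strong range, and this was the strongest of the peaks inside any of the 4 genes.

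The only promoter peak of the optimal list at these genes was Eip93F summit 1. Its summit at 21972298 stood 81 bp upstream of the start of Eip93F-RA and Eip93F-RC, in intron 3 of Eip93F-RB, and ranked 3743. The replicate ranks were 5326, 3289, 1923 and 11066 (mean 5401 ± 4027, SD, n = 4). Replicates 1, 2 and 3 had it among their strong peaks and replicate 4 did not. Without replicate 4 the mean rank was 3513.

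The other intronic Eip93F peaks were weaker and varied more. Summit 2 at 21979564, 7185 bp downstream of the second start site, ranked 6934, with 18525, 4851, 9824 and 10080 in replicates 1 to 4 (mean 10820 ± 5673, SD, n = 4). Summit 4 at 21999135, in intron 5 of Eip93F-RA and Eip93F-RC, ranked 6984, with 8321, 11674, 15953 and 5233 (mean 10295 ± 4598, SD, n = 4). Each was strong in 1 replicate, and not in the same replicate. The nearest protein-coding TSS to summit 4 was that of Theg, 15562 bp away. Summit 5 at 22019254 belonged to the downstream flank and lay in the 5′ UTR of Idh3b, which encodes a subunit of mitochondrial isocitrate dehydrogenase, 70 bp upstream of another Idh3b start site. It ranked 4424, with 7360, 4120, 12104 and 3293 in the replicates (mean 6719 ± 3996, SD, n = 4), strong in all but replicate 3.

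Hr38 (FBgn0014859) lies at chr2L:20683462-20714588 on the minus strand and has 2 transcripts from 1 start site. It had the most even set of peaks when replicate peaks were matched by overlap. Of the 4 inside or upstream of it, 3 were then strong in every replicate. Upstream there were 2 peaks. Summit 2 at 20716192, 1604 bp upstream of the TSS, was 143 bp wide, lay in a window of 58.5% G and C, the highest of the 14, and ranked 3640. Its replicate ranks of 2303, 8532, 3812 and 3439 (mean 4522 ± 2750, SD, n = 4) put replicate 2 just beyond the strong range. Summit 1 at 20716933, 2345 bp upstream, ranked 5086, with 3470, 7919, 4440 and 6362 in the replicates (mean 5548 ± 1986, SD, n = 4). By overlap this peak was strong in all 4, although its summit moved by 146 bp in replicate 2. When the replicate summit had to lie within 100 bp, replicate 2 was matched to another peak at rank 17290. The mean rank then became 7890.5 ± 6380.5 (SD, n = 4).

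Both peaks inside Hr38 lay in the same long intron, intron 1 of Hr38-RB and intron 2 of Hr38-RD. Summit 3 at 20700762, 13826 bp downstream of the TSS and 219 bp wide, ranked 3519, with 3432, 3667, 3226 and 6860 in replicates 1 to 4 (mean 4296 ± 1719, SD, n = 4). Replicates 1, 2 and 3 lay close together and replicate 4 ranked it lower. Summit 4 at 20695257, 19331 bp downstream, ranked 4528, with 7341, 3971, 4815 and 5519 (mean 5412 ± 1434, SD, n = 4). It too was strong in all 4 replicates. The nearest protein-coding TSS to summit 4 was that of CG2617, 12889 bp away.

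The strongest peak of the Hr38 window was at other genes. Hr38 summit 5 at 20681977 lay beyond the 3′ end of Hr38, 131 bp upstream of Cen, which encodes a centrosomal protein, and between the divergent genes Cen and CG2617. It ranked 2007, with 2196, 2662, 2072 and 2345 in the replicates (mean 2319 ± 255, SD, n = 4). It stood ahead of the other 4 Hr38 summits in every replicate. The 3′ end of Hr38 overlaps the end of CG2617 in the annotation, so distance alone assigned this peak to Hr38.

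Hr39 (FBgn0261239) lies at chr2L:21237250-21259675 on the plus strand, with 4 transcripts from 1 start site. By optimal rank it held the weakest 2 of the 14 peaks, and its ranks varied widely between replicates. By the mean over replicates Hr39 summit 1 was also the lowest, but Eip93F summits 2 and 4 were lower than Hr39 summit 2. Both peaks inside the gene lay in intron 2 of all 4 transcripts. Summit 1 at 21244269, 7019 bp downstream of the TSS, ranked 7011, with 9322, 22908, 6542 and 9163 in replicates 1 to 4 (mean 11984 ± 7394, SD, n = 4). It was strong in replicate 3 only. Summit 2 at 21246876, 9626 bp downstream, ranked 7058, with 8805, 6284, 16766 and 6405 (mean 9565 ± 4939, SD, n = 4). It was strong in replicates 2 and 4. Summit 3 at 21261021 lay in the downstream flank, 147 bp upstream of the gene l(2)k14505, and ranked 5529. Replicates 1, 3 and 4 placed it at 7917, 11774 and 4417 (mean 8036 ± 3680, SD, n = 3), and it overlapped no peak of replicate 2. By overlap it was the only one of the 14 that lacked a partner in a replicate.

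The gene crol (FBgn0020309) lies at chr2L:11794327-11809438 on the minus strand, with 9 transcripts from 2 start sites that stand close together. Its only optimal summit, at 11806937, lay 2035 bp downstream of the nearer start site, in intron 1 of all 9 transcripts, and ranked 5100. The replicate ranks were 4042, 3774, 4367 and 6733 (mean 4729 ± 1358, SD, n = 4), so it was strong in all 4. The summit position was the least fixed of the 14, with a largest shift of 176 bp, against a median of 48.5 bp over the 14. When the replicate summit had to lie within 100 bp, replicate 4 had no match, replicate 2 was matched to another peak at rank 18033, and the mean rank became 8814 ± 7986 (SD, n = 3).

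The order of neighbouring peaks among the 14 could not be tested at 0.05. Taking neighbours in the order of optimal ranks gave 13 pairs, and 1 pair kept its direction in 4 of 4 replicates, Eip93F summit 3 over Hr38 summit 3 (p = 0.13, adjusted p = 1, exact two-sided sign-flip permutation test of log10 ranks, Benjamini-Hochberg over the pairs). With 4 replicates 0.13 is the smallest p this test can give, so no pair could pass 0.05, and the directions are a description. The order itself came from the same 4 replicates pooled, so directions that keep to it are partly built in. Within Eip93F, summit 3 stood ahead of summits 2, 4 and 5 in 4 of 4 replicates and ahead of summit 1 in 3 of 4, and summit 5 stood ahead of summit 4 in 4 of 4. Hr39 summit 3 stood ahead of summit 2 in the 3 replicates that held both. No pair among Hr38 summits 1 to 4 kept its direction in every replicate.

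Counted per replicate, Eip93F and Hr38 had on average more strong summits in the gene and flanks than Hr39 and crol. Eip93F had 4, 8, 4 and 5 in replicates 1 to 4 (mean 5.25 ± 1.89, SD, n = 4). Hr38 had 5, 4, 5 and 5 (mean 4.75 ± 0.50, SD, n = 4). The means of these 2 genes differed by less than the SD of Eip93F, and the counts of Hr38 varied less. Hr39 had 3, 1, 1 and 3 (mean 2.00 ± 1.15, SD, n = 4), and crol had 4, 2, 1 and 1 (mean 2.00 ± 1.41, SD, n = 4). The Eip93F window is the longest, and per length its mean lay below those of Hr38 and crol. Per 100 kb of gene and flanks the replicates averaged 6.96 ± 2.51 at Eip93F, 11.5 ± 1.22 at Hr38, 6.17 ± 3.56 at Hr39 and 7.96 ± 5.63 at crol (SD, n = 4). Within the genes alone they averaged 4.59 ± 2.16 at Eip93F, 6.43 ± 0 at Hr38, 5.57 ± 2.23 at Hr39 and 9.93 ± 6.62 at crol (SD, n = 4), so that crol, not Hr38, had the highest mean. In replicate 1 crol held 4 strong summits, and 3 of them overlapped no optimal peak.

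At promoters the 30000-peak lists gave a fuller picture. In the list called on the pooled replicates every gene of the 4 showed a summit 1 kb or nearer to a TSS, as did 38.4% of all protein-coding genes and 72.7% of those in the length range. For 3 of the genes it was below the optimal list. The best pooled summit ranked 9464 at Hr39, 90 bp downstream of the TSS, and 11760 at Hr38, 45 bp upstream. For both crol start sites it was the same summit, at rank 11592. At Hr38 the best promoter summit of replicates 1 to 4 stood at 12715, 12011, 15481 and 9438 (mean 12411 ± 2484, SD, n = 4), strong in 0 of 4. These summits lay 580, 588, 64 and 69 bp upstream of the TSS, so they are not 1 site. The peaks overlapping the pooled Hr38 peak ranked 14049, 15481 and 9438 in replicates 1, 3 and 4 (mean 12989 ± 3158, SD, n = 3). Replicate 2 held no such peak. At Hr39 the ranks were 4799, 10632, 9699 and 8371 (mean 8375 ± 2558, SD, n = 4), strong in replicate 1 only. The summit of replicate 1 stood 691 bp downstream of the TSS, away from the pooled summit. The replicate peaks overlapping that pooled peak ranked 12390, 10632, 9699 and 8371 (mean 10273 ± 1689, SD, n = 4), strong in 0 of 4. For the crol start of RA, RB, RC and RE the best ranks within 1 kb were 4557, 8815, 15683 and 10338, strong in replicate 1 only. Those summits are not 1 site, as they lay 296 bp upstream and 897, 882 and 153 bp downstream of that start. For the start of the other 5 crol transcripts the best ranks were 4557, 9939, 17458 and 10338. The replicate peaks overlapping the pooled crol peak had these same ranks, strong in replicate 1 only.

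The distal Eip93F promoter was close to the limit of the optimal list. Within 1 kb of the start of Eip93F-RB the best pooled summit ranked 9777, 367 bp upstream, outside the list. The replicates ranked their own best summit there at 8568, 5886, 6602 and 7892 (mean 7237 ± 1215, SD, n = 4). It was strong in replicates 2, 3 and 4 and just outside that range in replicate 1. The replicate summits stood at different places around the start, 709 bp downstream in replicate 1 and 282, 210 and 523 bp upstream in replicates 2, 3 and 4. These values are the best of several summits in each replicate. The replicate peaks that overlap the pooled peak itself ranked 27492, 5886, 6602 and 7892 (mean 11968 ± 10383, SD, n = 4), so replicate 1 held only a weak one there.

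**Figure D4:**
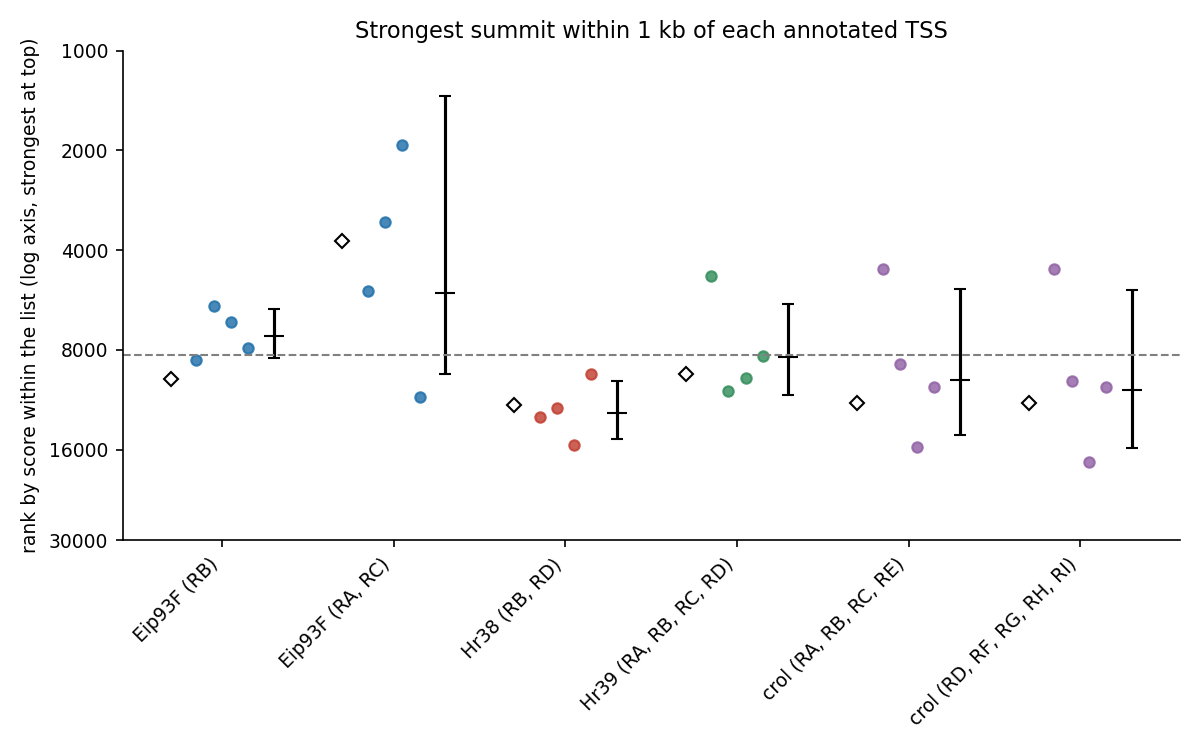
Rank of the strongest summit within 1 kb of each annotated TSS of the 4 genes, by replicate (coloured points, replicates 1 to 4 from left to right), in the pooled list (open diamonds) and as mean ± SD (black bars). The vertical axis is logarithmic with the strongest at the top, and the dashed line is rank 8282. The points of both Eip93F start sites lie mostly above the line, and all 4 points of Hr38 lie below it.

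The pooled list held 59 further summits at the 4 genes that the optimal list did not keep. Eip93F had 31 of them, Hr39 15, crol 10 and Hr38 3. A partner in all 4 replicates was found for 21, and 18 met a strong peak of at least 1 replicate. These are not counts of separate sites, because nearby summits could take the same replicate peaks. The crol summit at 11807136 took those of crol summit 1, and the Hr39 summit at 21244483 those of Hr39 summit 1. The Eip93F summits at 21970878 and 21971078 also shared theirs. The strongest of the 59 ranked 8347 and lay 3622 bp upstream of the nearer crol start site, in the neighbouring gene CycY. Its replicate ranks were 5563, 5887, 11914 and 17084 (mean 10112 ± 5489, SD, n = 4). Replicates 1 and 2 had it among their strong peaks and replicates 3 and 4 did not. Counted by replicate, 14 strong summits overlapped no optimal peak, and all 14 are replicate peaks matched to summits of these 59, not further sites. Of these 7 were at Eip93F, 4 at crol, 3 at Hr39 and 0 at Hr38, and replicates 1 and 2 gave 5 each and replicates 3 and 4 gave 2 each.

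The windows of 200 bp around the 14 summits were searched on both strands for receptor and other motifs. The receptor core AGGTCA was found in 1 of 14 windows, against 4.03% of all optimal windows and 4.41% of windows centred 500 bp to their right. The match was under Hr39 summit 1, at 21244239 to 21244244 on the minus strand. It is part of CAAGGTCA, the site type of FTZ-F1 and of Hr39 itself, which was found in 0.302% of all optimal windows and 0.495% of the shifted ones. In the sequence of Hr39 summit 1 above it reads TGACCTTG, with its centre 26 bp left of the summit. This was the peak that was strong in replicate 3 only. The core with a 5′ T, TAGGTCA (1.05% of optimal windows), and the NR4A type site AAAGGTCA (0.543%) were in 0 of 14 windows. Direct repeats of AGGTCA spaced by 1, 2, 4 or 5 bases and inverted repeats spaced by 1 were in 0 of 14 and in 0 of the 8282 optimal windows.

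GAGAG, the core bound by GAGA factor, was in 5 of 14 windows, against 22.8% of all optimal windows and 25.6% of shifted ones. Of its 13 matches, overlapping ones included, 7 were under crol summit 1, where they form runs of CT repeats on the plus strand printed above. Eip93F summit 1 and Hr38 summit 2 had 2 each, and Eip93F summit 4 and Hr39 summit 1 had 1 each. The AP-1 site TGANTCA was in 1 of 14 windows, that of Hr38 summit 3, against 5.13% of all optimal windows. The Zelda site CAGGTAG (0.712% of optimal windows), the DREF site TATCGATA (1.49%) and the E-box CACGTG (1.67%) were in 0 of 14. The counts depended on the window length, since in 100 bp GAGAG was in 2 of 14 windows and the AP-1 site in 0, and in 400 bp AGGTCA was in 2 and TAGGTCA in 1. The 200 bp windows held a median of 38.5% G and C, with a range of 27.0% to 58.5%, against a median of 34.5% for all optimal windows.

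Set beside 20 other genes of the ecdysone pathway and its receptors, the 4 genes had weaker strongest peaks than most. Their strongest summits ranked 2007 at Hr38, 2171 at Eip93F, 5100 at crol and 5529 at Hr39. In the list of 20, 19 genes had an optimal summit in the gene or flanks. The share was 49.2% of all protein-coding genes and 76.6% of genes in the length range of the 4. The 19 genes had a median best rank of 739, and 17 had a better rank than any of the 4 genes. Genes in that length range had a median best rank of 1747. Of them, 41.7% had a better best rank than Hr38, 43.0% than Eip93F, 64.1% than crol and 66.0% than Hr39. The 2007 of Hr38 and the 5529 of Hr39 belong to the downstream peaks at Cen and l(2)k14505. Inside or upstream of the genes the best ranks were 3519 at Hr38 and 7011 at Hr39. Of the 20 genes 19 were ahead of each, by their best rank in the whole window, downstream flank included. The best were Eip78C at rank 5, Hr4 at 81 and Eip75B at 133, all genes of ecdysone-regulated receptors, then the transporter gene E23 at 217 and the transcription factor gene vri at 300. Eip78C is the tagged gene itself, and any effect of the transgene on its rank was not tested. By the rank of 2007 only usp at 2512, br at 3225 and Hr78, which had no optimal summit, were not ahead of Hr38. In the replicates Hr78 averaged 1.25 ± 0.50 strong summits in the gene and flanks (SD, n = 4). The list had 18 of 20 genes with a summit inside, against 14.9% of all genes and 61.1% in the length range of the 4. A summit near a TSS, at most 1 kb away, was found at 16 of 20, against 22.0% and 43.5%. The list had a median of 8.5 summits or 15.3 per 100 kb, against medians of 2 and 5.73 in that length range. The genes of the list run from 3311 bp for ERR to 113744 bp for Eip75B, so that range matches them only in part. The 4 genes and the list were named with earlier results of these data known, and the difference between them was not tested.

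**Figure D5:**
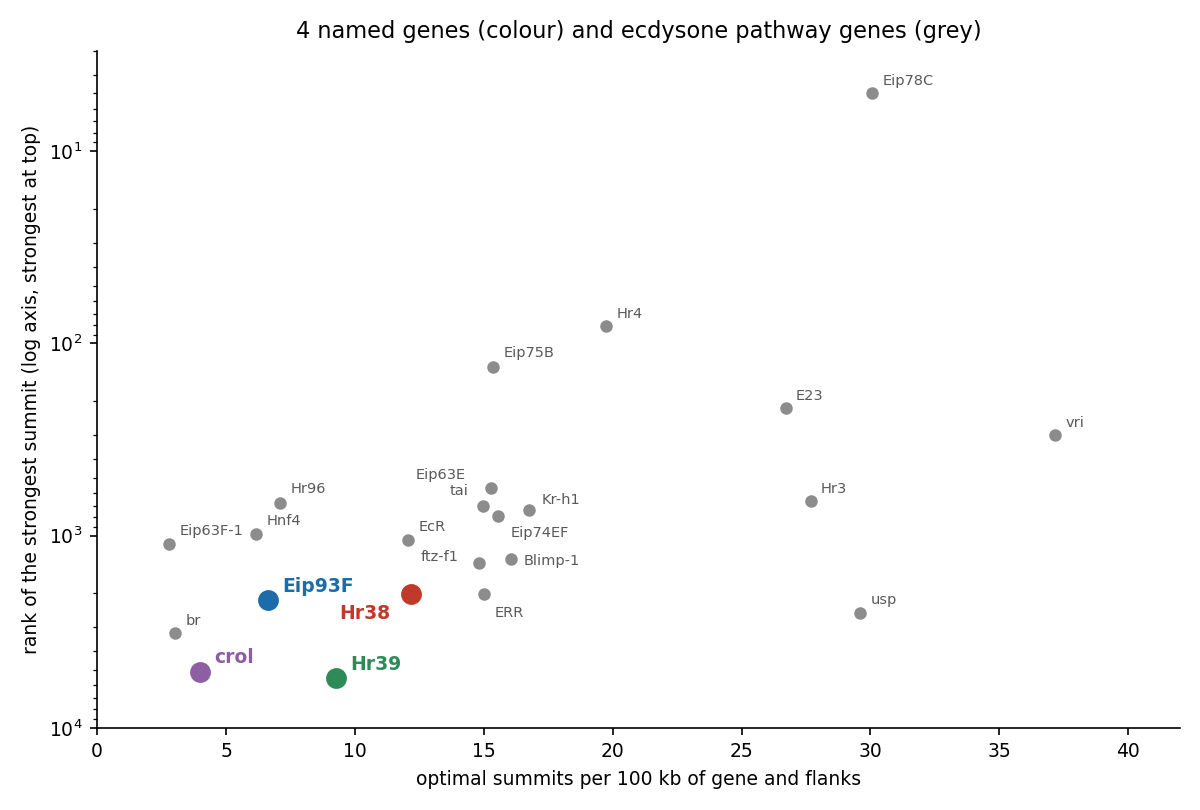
Rank of the strongest optimal summit (vertical axis, logarithmic, strongest at the top) against optimal summits per 100 kb of gene and flanks (horizontal axis) for the 4 genes in colour and 19 ecdysone pathway genes in grey. Hr78 had no optimal summit and is not drawn. The 4 genes lie at the lower left, with br beside them.

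Over all protein-coding genes, those with the most similar best ranks and counts of strong summits in the 4 replicates were looked up, by the root mean square difference of log10 best rank and log2 of the count plus 1. For Eip93F they were CG3655, Abl and bi (difference 0.15, 0.15 and 0.16). For Hr38 they were Ids, tws and east (0.084, 0.097 and 0.10). For Hr39 they were Polr3D and mus304, which share the same peaks, and dsb (0.10 each). For crol they were Eo, CG32591 and CG9503, which also share their peaks (0.19 each). Abl, for example, had 5 optimal summits, as Eip93F did, with a best rank of 2253, against 2171 at Eip93F. Likeness here covers 4 replicates and peak ranks only.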

How the data were processed

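Peaks were measured by anti-GFP ChIP-seq in 4 biological replicates that form 1 group, numbered as in the labels. Per the file headers, the authors called each replicate list from the alignment of the replicate and a control alignment, and the pooled list from all 4 alignments. The control alignment named there is of another experiment and was not among the samples used here. By the same headers the optimal list was thresholded by irreproducible discovery rate (IDR) from the pooled list and the lists of replicates 2, 3 and 4. The aligner, caller, IDR threshold and software versions were not given in the sources used here. In the deposited files each peak has a score on a scale that is not stated, the summit's offset from the start, and −log10 of a q-value, which was 4.26 for every optimal peak, so the score alone ranked peaks within a list. The optimal list equalled the 8282 best peaks of the pooled list in 5 of 5 compared columns. Lists on dm3 were not used here.

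Genes and start sites came from Ensembl release 115 on dm6 coordinates, and no peak ended beyond an arm. Positions are 1-based. Summits were counted in each gene and 5 kb to either side, optimal peaks were matched to the best-ranked replicate peak overlapping by at least 1 bp, and motifs were counted in 200 bp centred on summits. Differences in log10 rank between summits next to each other in the order were tested with exact sign flips over replicates. Counting, matching, motif and sign-flip functions were tested on simulated data (Python 3.11.15, numpy 2.4.6, pandas 2.3.3, matplotlib 3.10.9). The alternatives were other flanks, overlaps, list sizes, matching rules, windows and left-out replicates. The text names the 4 genes with every optimal summit, the genes nearest to them, counts of a list of 20 ecdysone pathway genes and the 3 most similar genes to each of the 4. Other pathway genes and the stronger summits outside the optimal list were picked for naming once their values were known. The members, lists and motifs were chosen with earlier results of these data known.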

Additional observations from a re-analysis of the deposited data

Results flagged for a closer look

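In 3 of the 27 sets of 4 replicate values tested, 1 replicate stood apart from the other 3 by Dixon's criterion, which flags about 1 set in 20 by chance. Hr38 had 4 strong summits in replicate 2, against 5 in each of the other replicates, where summit 2 ranked 8532 and so fell just outside the strong range. With the other 3 counts tied the criterion is met whatever the gap, so this is a difference of 1 summit and the rate of 1 in 20 does not apply to it. Hr38 summit 3 ranked 6860 in replicate 4, against 3226 to 3667 in the other replicates. Hr39 summit 1, which holds the CAAGGTCA match, ranked 22908 in replicate 2, against 6542 to 9322 in the other replicates. No cause was tested.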

How the results depend on the processing

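All 12 alternative counts per gene moved with the size of the list, and 3 of 12 with the length of the flanks. In the 4141 strongest optimal peaks, 2 summits remained at Eip93F, 3 at Hr38, 0 at Hr39 and 0 at crol. With 10 kb flanks Eip93F had 9 and crol 2, and without flanks Hr38 had 2. Counting only summits nearest to a TSS of the gene itself, an alternative chosen after seeing the data, left 3 at Eip93F and 3 at Hr38. The replicate means were 2.25, 3.00, 0 and 0.50 for Eip93F, Hr38, Hr39 and crol with the strongest 4141, and 32.0, 10.25, 17.25 and 12.0 with the whole lists. Leaving out each replicate gave 4.33 to 5.67 for Eip93F, 4.67 to 5.00 for Hr38, 1.67 to 2.33 for Hr39 and 1.33 to 2.33 for crol. Mean ranks ranged from 2338 to 2667 for Eip93F summit 3, 2204 to 2401 for Hr38 summit 5, 6167 to 9846 for Hr39 summit 3 and 4061 to 5047 for crol summit 1. With summits within 100 bp the mean rank of crol summit 1 was 8814 (n = 3), as replicate 4 dropped out and replicate 2 took another peak. That of Hr38 summit 1 was 7890.5 (n = 4), as replicate 2 took another peak there too. That of Eip93F summit 5 was 4924 (n = 3), as replicate 3 dropped out. All protein-coding genes with a summit made up 14.9% without flanks and 22.0% within 1 kb of a TSS. List and window sizes set these counts by construction. No paired analysis was possible because all samples form 1 group, so none pair across groups; the sign-flip test set peaks of the same replicate against each other. Depth is unknown, the score's scale is not stated, and ranks show order, not amounts bound.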
